A study of Mus musculus with 4 samples.

Results

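The killer cell lectin-like receptor genes (Klr genes) were taken as all protein-coding mouse genes whose symbols start with Klra, Klrb, Klrc, Klrd, Klre, Klrg, Klrh, Klri or Klrk. The rule found 29 genes among 21887 protein-coding genes of the RefSeq table of GRCm38.p6, the assembly behind mm10. Of these, 25 lie in the natural killer complex on chromosome 6, between 128609227 and 131247716, and Klrg2 and Klrg1 lie elsewhere on that chromosome. The remaining genes, Klra16 and Klra23, are given positions below 3050071, where the first peak of chromosome 6 in either list starts, so they were not counted and 27 genes are described. The family was selected on its numbers of peaks listed in 1 genotype only in these same lists, so the differences between genotypes are given as a description. Of all coding genes 2.86% had no peak of either list, and each of the 27 had at least 1 in both.

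The proteins are C-type lectin-like receptors of natural killer cells and some T cells, which read the surface of other cells and either hold back or release killing. The Klra genes encode the Ly49 receptors for MHC class I molecules, and the number of Ly49 genes differs between inbred mouse strains. Klrb1 receptors bind Clec2 proteins, the products of Klrc genes pair with CD94 (Klrd1) to read the class Ib molecule encoded by H2-T23, and NKG2D (Klrk1) binds stress ligands such as those of the Raet1 and H60 genes. Mouse skin holds T cells of the epidermis that carry some of these receptors, whereas keratinocytes are known as their targets.

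The peaks come from ATAC-seq, in which Tn5 transposase cuts accessible DNA. The cells were hair follicle stem cells (HFSC) of mice labelled Irx5KO (2 samples) and WT (2 samples), sorted as Ly-6A/E negative, CD34 positive and positive for a marker written CD45f. Irx5 encodes an Iroquois homeodomain transcription factor. The labels give no allele, strain, age or sex, and no read depth was used here. Whether the Irx5KO and WT mice carry the same set of Ly49 genes is therefore not known, and at the Klra genes a difference in haplotype and a difference in accessibility cannot be told apart. Each genotype has 1 peak list made from both of its replicates, so no spread between replicates and no test between genotypes could be had. Intervals are 95% Wilson intervals and cover counting error only. The lists held 484992 peaks in Irx5KO and 498061 in WT on the standard chromosomes, covering 453.8 Mb and 465.3 Mb. Peak scores are the authors' own and were used only as percentile ranks within a list.

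The sorted cells were checked at marker genes. A gene-end peak is a peak that reaches within 1000 bp of either end of a gene. All 11 HFSC markers, such as Krt15, Sox9 and Lgr5, had one in both genotypes, as did 75.2% of all coding genes, so this check says little about the sort. Of 12 natural killer and T cell markers, 3 (Cd247, Cd8a and Eomes) had one in both, Ncr1 had one in Irx5KO only, Ptprc and Nkg7 had one in WT only, and 6 had none. Of 3 genes for adaptor proteins that carry the receptors' signal into the cell, Hcst had no peak in either list, Fcer1g had 1 Irx5KO peak and no WT peak, Tyrobp had 4 peaks in each, and none had a gene-end peak. At the natural killer and T cell markers the Irx5KO list held 33 peaks not found in WT, and the WT list held 31 not found in Irx5KO. At the HFSC markers those numbers were 63 and 33. Of such peaks Irx5KO held 51.6% (39.6 to 63.4) at the natural killer and T cell markers and 65.6% (55.7 to 74.4) at the HFSC markers. Over all coding genes it held 48.0%. The part of natural killer and T cells in the values of the Klr genes was not tested. The Klra genes arose from each other by duplication, and how reads that map to several places were handled is not known here, so the split of peaks between neighbouring copies is uncertain.

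The promoter windows of 4 Klra genes were reached by WT peaks and by no Irx5KO peak. RefSeq promoter windows of GRCm38.p6 run from 250 bases before to 50 bases after a transcript start. Of the 27 genes 24 have one, and Klrg1, Klrd1 and Klri2 do not. The start used lies 18848 bp inside the gene span at Klre1, 3879 bp at Klrc1 and 3478 bp at Klri1. It lies 1719 bp inside at Klra10, 1576 bp at Klrg2, 1262 bp at Klra9 and 1233 bp at Klrb1. At the other genes it lies at most 354 bp inside. A peak in both genotypes reached 8 of the 24 windows, against 60.7% of all windows of protein-coding genes. A peak in Irx5KO only reached 0 windows (6.47% of all), a peak in WT only reached 4 (3.46% of all), and 12 had none (29.4% of all). The 4 windows are those of Klra5, Klra6, Klra8 and Klra3. They are printed here with the windows of Klra9 and Klra4, which had peaks in both lists, because Klra9 is the closest in sequence to Klra3 and Klra4 the closest to Klra8. Each line gives the 250 bases before the start, 5′ to 3′ on the minus strand, and capitals mark ACANNTGT, the motif known for Iroquois proteins.
Klra5: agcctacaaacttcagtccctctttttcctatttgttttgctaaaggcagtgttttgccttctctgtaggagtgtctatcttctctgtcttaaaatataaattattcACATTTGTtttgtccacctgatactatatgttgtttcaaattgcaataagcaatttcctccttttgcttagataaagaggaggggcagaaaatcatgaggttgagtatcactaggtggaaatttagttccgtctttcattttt
Klra6: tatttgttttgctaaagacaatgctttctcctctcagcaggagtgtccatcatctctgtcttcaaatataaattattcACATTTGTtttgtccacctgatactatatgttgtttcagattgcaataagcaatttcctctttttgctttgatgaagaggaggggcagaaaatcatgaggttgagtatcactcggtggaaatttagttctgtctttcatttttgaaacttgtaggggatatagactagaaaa
Klra8: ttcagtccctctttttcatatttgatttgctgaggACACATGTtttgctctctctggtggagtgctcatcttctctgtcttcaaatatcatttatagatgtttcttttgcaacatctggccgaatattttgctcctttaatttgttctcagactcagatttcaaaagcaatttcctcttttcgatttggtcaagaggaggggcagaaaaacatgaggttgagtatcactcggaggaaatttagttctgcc
Klra3: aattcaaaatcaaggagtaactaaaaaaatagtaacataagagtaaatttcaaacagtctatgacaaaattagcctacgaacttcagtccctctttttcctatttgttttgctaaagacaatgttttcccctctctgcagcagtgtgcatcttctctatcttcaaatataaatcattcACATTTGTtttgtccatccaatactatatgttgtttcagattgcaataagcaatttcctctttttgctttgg
Klra9: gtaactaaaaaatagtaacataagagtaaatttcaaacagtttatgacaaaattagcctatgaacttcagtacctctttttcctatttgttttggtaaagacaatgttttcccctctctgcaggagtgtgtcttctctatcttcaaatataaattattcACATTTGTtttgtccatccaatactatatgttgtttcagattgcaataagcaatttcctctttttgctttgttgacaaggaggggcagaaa
Klra4: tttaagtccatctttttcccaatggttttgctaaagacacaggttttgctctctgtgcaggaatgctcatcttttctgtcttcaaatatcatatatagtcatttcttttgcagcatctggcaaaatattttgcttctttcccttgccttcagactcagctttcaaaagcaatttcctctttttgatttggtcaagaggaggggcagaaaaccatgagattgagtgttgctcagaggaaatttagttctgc

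These stretches lie on mm10 at chr6:129913225-129913474 (Klra5), chr6:130026955-130027204 (Klra6), chr6:130129899-130130148 (Klra8), chr6:130337627-130337876 (Klra3), chr6:130193113-130193362 (Klra9) and chr6:130067272-130067521 (Klra4). The WT list covered 300 of the 300 bases of the Klra5 window, 210 of the Klra6 window, 300 of the Klra8 window and 114 of the Klra3 window, and the Irx5KO list covered 0 of each. The nearest Irx5KO peak lay 125 bp from the Klra5 window, 115 bp from that of Klra6, 43 bp from that of Klra8 and 177 bp from that of Klra3. So in each case a peak of the Irx5KO list lay close by. At Klra8, which encodes the activating receptor Ly49H for a protein of mouse cytomegalovirus, the WT peak (130129711 to 130131700) and an Irx5KO peak (130130191 to 130132140) shared 1510 bp. At Klra3 the WT peak (130337051 to 130337690) shared 350 bp with an Irx5KO peak that ended at 130337400. At Klra5 (129913151 to 129913500) and Klra6 (130026961 to 130027170) the WT peaks overlapped no Irx5KO peak and ranked at percentiles 22.8 and 28.1 of the WT list.

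With 500 bp added on each side of the windows, all 4 of these were reached in both genotypes. Of all 24, 0 were then reached by Irx5KO peaks alone and 1 by WT peaks alone, that of Klrb1, which lay 2914 bp from the nearest Irx5KO peak and 234 bp from the nearest WT peak. Among the better-ranked 50% of peaks there was 1 in Irx5KO only (Klrg2) and 1 in WT only (Klra8). The other windows with peaks were those of Klra17, Klra4, Klra9, Klra7, Klra10, Klra1, Klrh1 and Klrg2. At Klra4, the gene of the activating receptor Ly49D, the Irx5KO peak covered 119 bases and the WT peak 300. At Klra7, the gene of the inhibitory receptor Ly49G, the order was the other way, with 248 bases in Irx5KO and 108 in WT. None of the 5 Klrb windows, the 3 Klrc windows or the windows of Klrk1, Klre1, Klri1 and Klra2 was reached by a peak.

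**Figure D1:**
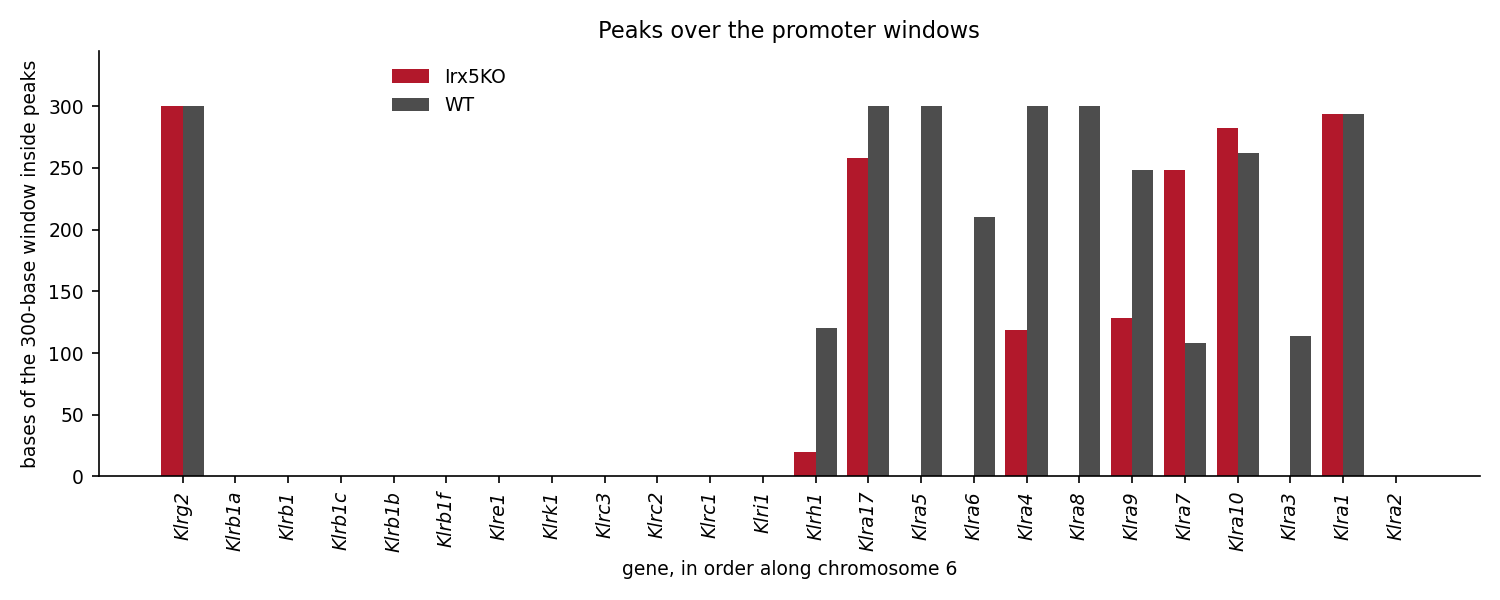
Bases of each 300-base promoter window that lie inside peaks, for 24 Klr genes in order along chromosome 6, with the Irx5KO list left of the WT list. Klra5, Klra6, Klra8 and Klra3 have WT bases and 0 Irx5KO bases, and the Klrb and Klrc windows are empty in both.

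Several of the Klra windows resembled each other in sequence, so a motif found in several of these is not a set of independent matches. The Klra1 and Klra10 windows were closest to windows outside the Klra genes, to Klre1 at 52.3% and to Klrb1 at 53.7%. By global alignment Klra4 and Klra8 were 86.0% identical, Klra9 and Klra3 85.0%, and Klra5 and Klra6 76.0%, with a median of 53.0% over the 55 pairs of Klra windows. Outside the Klra genes the closest pair was Klrc3 and Klrc2, at 75.1%. Over the 24 genes, Pearson's r between a window's identity to its closest relative and its gene's number of Irx5KO-only minus WT-only peaks was -0.47 (Spearman's rho -0.54), and over the 11 Klra genes it was -0.16 (rho -0.01). These are descriptions across genes that share a family, a region and both libraries.

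Motifs were searched on both strands of the 300 bases. ACANNTGT was found in 7 of 24 windows (Klrh1, Klra5, Klra6, Klra8, Klra9, Klra7 and Klra3), against 6.16% of 17492 windows of coding genes. It was in all 4 windows reached in WT only, but also in Klra9, Klra7 and Klrh1, which had peaks in both lists. In Klra5, Klra6, Klra9 and Klra3 it stood 12 bases after the first letter of TATAAA, and the letters were acatttgt in all 4, as in Klra7. The RUNX motif TGTGGT was found in 8 of 24 windows, against 15.1%, and 7 of these 8 were outside the Klra genes (Klrb1a, Klrb1c, Klre1, Klrk1, Klrc3, Klrc2 and Klrc1). TATAAA was found in 9 windows against 13.3%, TGANTCA of AP-1 in 4 against 7.03%, AGATAA of GATA in 2 against 9.94%, CCGGAAG or CAGGAAG of ETS in 1 against 22.7%, and GGTGTGA of T-box in 1 against 3.68%. The ETS and T-box matches were both in Klra1.

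Over their wider surroundings the Klr genes carried fewer Irx5KO-only than WT-only peaks. Each peak was assigned to the coding gene with the nearest end within 50 kb of its midpoint, and a peak was called shared when it overlapped the other list by at least 1 bp. The 27 genes held 654 Irx5KO peaks, of which 581 were shared (88.8%, 86.2 to 91.0), and 682 WT peaks, of which 537 were shared (78.7%, 75.5 to 81.6). Over all coding genes 76.7% of Irx5KO and 74.7% of WT peaks were shared, so both genotypes had a smaller part of their Klr peaks outside the other list than at coding genes in general. Found in a single genotype were 73 peaks in Irx5KO and 145 in WT, an Irx5KO-only share of 33.5% (27.6 to 39.99). Over all coding genes the share was 48.0%. Fewer Irx5KO-only than WT-only peaks were found at 20 genes, more at 4 and equal numbers at 3. Of all coding genes, 36.6% had more WT-only peaks and 36.3% more Irx5KO-only peaks.

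The Klra genes held most of these peaks. The 11 genes had 477 Irx5KO and 495 WT peaks, of which 38 of Irx5KO and 92 of WT had no overlap with the other list. At Klra8 there were 0 Irx5KO-only and 10 WT-only peaks, and at Klra3, which encodes the inhibitory receptor Ly49C, 0 and 8. Klra2, the gene of Ly49B, which is set apart from the cluster (131198970 to 131247716), had 3 Irx5KO-only and 14 WT-only peaks, the most of any member. Klra1, the gene of the inhibitory receptor Ly49A, had 4 and 10. The other Klra genes had fewer Irx5KO-only than WT-only peaks as well, with 1 and 4 at Klra4, 5 and 9 at Klra5, 3 and 8 at Klra7, 5 and 8 at Klra9, 5 and 7 at Klra10 and 3 and 6 at Klra17. Klra6 was the exception, with 9 Irx5KO-only and 8 WT-only peaks.

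The 5 Klrb genes held 83 Irx5KO and 100 WT peaks, with 13 and 29 in 1 genotype only. All 5 had fewer Irx5KO-only peaks. Klrb1 had 2 peaks of Irx5KO alone and 11 of WT alone, Klrb1c, which encodes the NK1.1 antigen of C57BL/6 mice, had 6 and 8, Klrb1a and Klrb1b had 2 and 4 each, and Klrb1f had 1 and 2.

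At the genes of the CD94 and NKG2 receptors peaks were few in both lists. The regions assigned to these genes were short, 16.5 to 26.1 kb. By peaks per 10 kb these genes stood at percentiles 8.97 to 48.1 of all coding genes in Irx5KO and 16.4 to 55.5 in WT. Klrd1 (CD94) had 1 Irx5KO peak and 3 WT peaks, and 2 of the WT peaks were listed in WT only. Klrk1 (NKG2D) had 4 peaks in each list, 1 of them in 1 genotype only on each side. Klrc3 had 2 shared peaks in each list and none in 1 genotype only. Klrc2 had 1 Irx5KO peak and 2 WT peaks, with 1 listed in WT only. Klrc1, the gene of the inhibitory receptor NKG2A, had 4 Irx5KO and 2 WT peaks, and 2 of the Irx5KO peaks had no overlap with WT.

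Klre1 encodes the partner of the inhibitory receptor Klri1 and the activating receptor Klri2. By the same count Klre1 had 2 in Irx5KO and 3 in WT, Klri1 had 4 and 2, and Klri2 had 1 and 5. Klrh1 had 3 of each. Outside the complex, Klrg2 (38616329 to 38638815) had 3 peaks of the Irx5KO list alone and 0 of WT alone, and Klrg1 (122270596 to 122282833), the gene of an inhibitory receptor for cadherins, had 6 and 7.

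**Figure D2:**
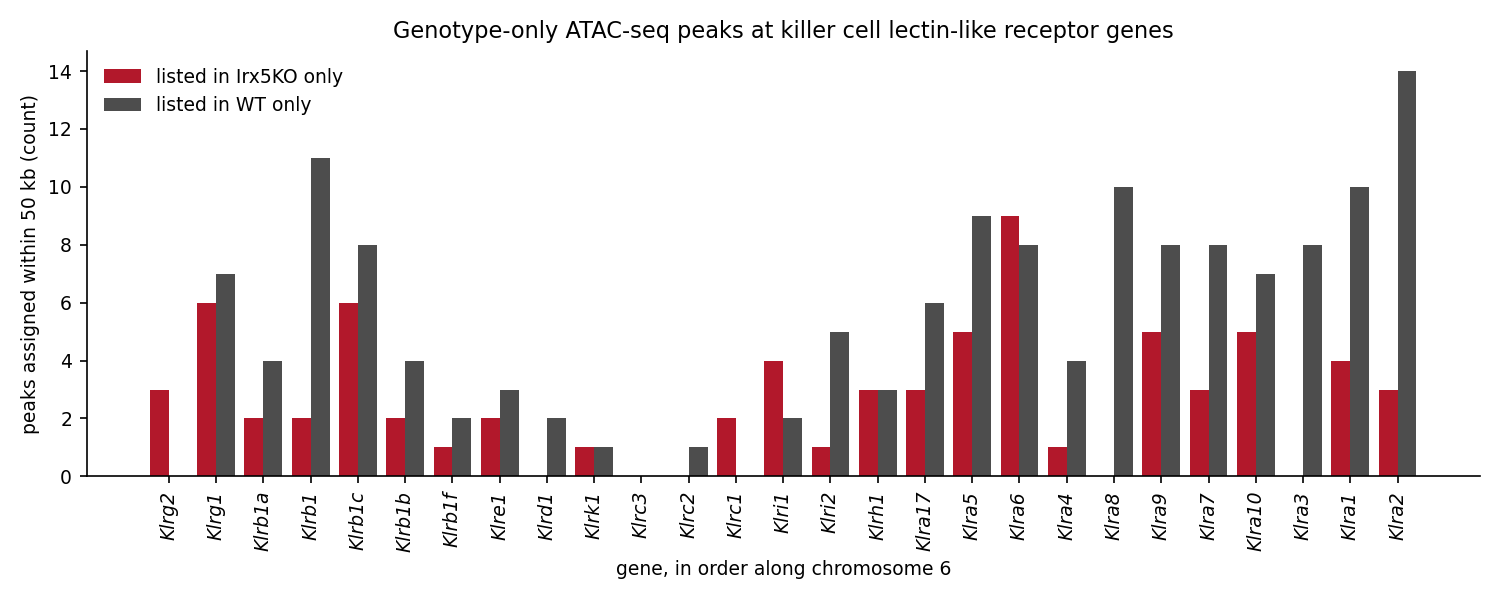
Number of peaks found in the Irx5KO list alone (left bar) and in the WT list alone (right bar), assigned to each of 27 Klr genes, in order along chromosome 6. WT-only bars are the higher ones at 20 genes, up to 14 at Klra2, and Irx5KO-only bars at Klrg2, Klrc1, Klri1 and Klra6.

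At their ends 20 Klr genes had a peak in Irx5KO and 20 in WT, against 81.3% of all coding genes in Irx5KO and 79.2% in WT. For 18 genes it was present in both genotypes (75.2% of all). Klrb1b and Klrc1 had it in the Irx5KO list alone, which makes 2 genes (6.07% of all), and Klrb1 and Klri2 in the WT list alone, again 2 (3.99% of all). Klrg1, Klrd1, Klrk1, Klrc3 and Klrc2 lacked it in both, 5 genes (14.7% of all). With a reach of 3000 bp in place of 1000 bp all 27 genes had such a peak in both genotypes, so none of these differences was left. All 11 Klra genes had one in both lists. Among the better-ranked 50% of peaks, 7 of all 27 Klr genes had a gene-end peak in Irx5KO and 11 of the 27 in WT. The shares of all coding genes under this filter and with the reach of 3000 bp were not counted. Whether these values differ from coding genes in general is therefore not known.

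Taken as groups, the Klra genes had peaks lying far more densely around them than the other Klr genes, though single genes overlapped. From Klra17 to Klra1 (129831154 to 130386874) the Irx5KO list covered 54.1% of 555.7 kb and the WT list 60.1%. From Klre1 to Klrh1 (129559365 to 129784270) they covered 12.1% and 13.2% of 224.9 kb, and from Klrb1a to Klrb1f (128609227 to 129059724) 31.0% and 33.3% of 450.5 kb. Over chromosome 6 as a whole the lists covered 16.7% in Irx5KO and 17.2% in WT.

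Scaled to the length of the region assigned to each gene, the 9 genes from Klra5 to Klra1 had 6.07 (Klra1) to 8.59 (Klra6) peaks per 10 kb in Irx5KO and 6.67 (Klra8) to 9.83 (Klra7) in WT. That placed them at percentiles 97.5 to 99.8 of all coding genes in Irx5KO and 98.2 to 99.8 in WT. Klra17 and Klra2 were lower, with 4.74 and 4.27 peaks per 10 kb in Irx5KO and 4.99 and 4.53 in WT. Klrb1c, outside the Klra genes, was above both, with 5.22 in Irx5KO and 5.63 in WT. Klrb1 had 3.52 in Irx5KO and 5.03 in WT, and Klrg1 had 4.52 and 3.72. Klrd1 had 0.569 in Irx5KO and 1.71 in WT, and Klrc2 had 0.595 and 1.19. The median was 3.68 over the 27 genes and 1.61 over all coding genes in Irx5KO, and 4.23 and 1.57 in WT.

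Fewer bases were covered in Irx5KO than in WT at 25 of 27 Klr genes, against 43.1% of all coding genes, and more at 2, against 53.5%. Among the 551 other coding genes with at least 6 peaks per 10 kb, 416 had fewer bases in Irx5KO and 133 more. Some of the 25 were near ties. Klre1 had 4760 bp in Irx5KO and 4770 bp in WT, Klrc3 4630 and 4650 bp, and Klrh1 13350 and 13400 bp. Peaks assigned to the Klra genes covered 386.7 kb in Irx5KO and 425.8 kb in WT, a difference of -9.19%, with all 11 genes lower in Irx5KO. Over all coding genes the difference was -0.67%. At Klra8 44530 bp was covered in Irx5KO and 51340 bp in WT (-13.3%), at Klra7 18510 bp in Irx5KO and 21830 bp in WT (-15.2%), and at Klra3 26540 bp in Irx5KO and 31010 bp in WT (-14.4%). Klrb1 had 16080 bp in Irx5KO and 19070 bp in WT (-15.7%). Klrg2 was covered more in Irx5KO, with 6100 bp in Irx5KO and 4190 bp in WT, and so was Klrc1, with 1690 bp in Irx5KO and 1170 bp in WT. When wide peaks were left out (over 2000 bp), 17 genes had fewer bases in Irx5KO and 10 had more.

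In 50 kb windows over the complex the Irx5KO list covered less than the WT list in 44 of 53 windows. Among these are 14 of the 15 windows between Klra1 and Klra2, where no Klr gene lies. The Irx5KO list also covered less of chromosome 6 as a whole, 16.7% against 17.2% in WT. No count of windows elsewhere is given here. The widest gaps among windows with a Klra gene were 69.5% in Irx5KO and 80.4% in WT at Klra4, and 74.9% and 84.2% at Klra8. The widest gap of all was 51.0% in Irx5KO and 64.1% in WT, from 128650001 to 128700000, between Klrb1a and Klrb1, where the lectin gene Clec2h lies. That window held 5 Irx5KO-only and 16 WT-only peaks.

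**Figure D3:**
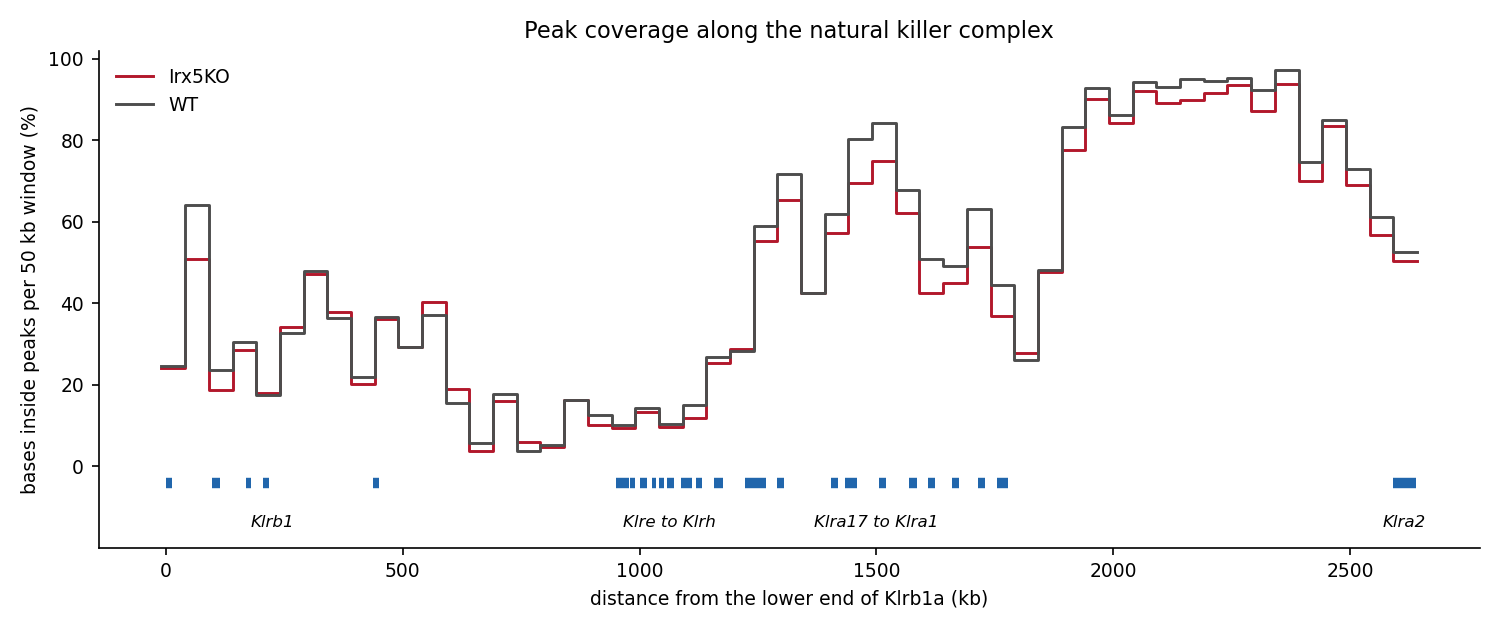
Share of bases inside peaks in 50 kb windows along the natural killer complex, against the distance from the lower end of Klrb1a in kb, for Irx5KO and WT; blue bars mark Klr genes. Coverage is lower from Klre1 to Klrh1 than from Klra17 to Klra1, and the Irx5KO line lies under the WT line in 44 of 53 windows.

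Peak density went along with the Irx5KO-only share in other genes too. Among other coding genes the share was 51.3% (51.0 to 51.7) at under 2 peaks per 10 kb, 45.7% (45.2 to 46.2) at 2 to 4, 38.6% (37.6 to 39.7) at 4 to 6, and 34.3% (33.0 to 35.7) at 6 or more. The Klr genes in the same classes had 46.2% (23.2 to 70.9; 6 genes), 42.9% (28.0 to 59.1; 7 genes), 30.3% (20.6 to 42.2; 5 genes) and 30.8% (22.7 to 40.2; 9 genes). The interval of the Klr genes held the value of the other genes in each of the 4 classes. At under 2 and at 2 to 4 peaks per 10 kb it rested on 13 and 35 genotype-only peaks. These intervals are too wide to tell the groups apart, and the part of peak density in the Klr share was not tested. Covered bases in Irx5KO relative to WT differed by -2.41% at the Klr genes and 2.14% at the other genes in the sparsest class, with opposite signs. The differences were -2.92% at the Klr genes and -1.44% at the other genes in the class of 2 to 4, -6.58% and -4.86% in that of 4 to 6, and -10.2% and -8.96% in the densest.

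**Figure D4:**
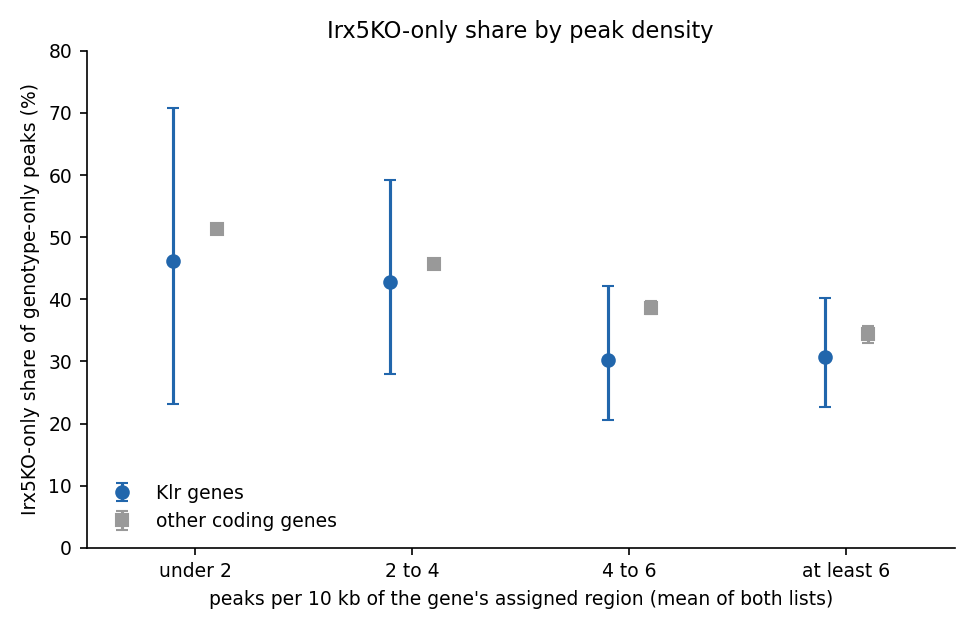
Irx5KO-only share of genotype-only peaks, in percent, by the number of peaks per 10 kb (mean of both lists), for Klr genes (circles) and other coding genes (squares) with 95% Wilson intervals. The share is 51.3% for other genes in the sparsest class and 34.3% in the densest. The Klr intervals, which are wide in the sparser classes, hold the other genes' values.

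Other large families had like shares. For the 124 Vmn2r genes, which encode pheromone receptors, 459 peaks were in Irx5KO alone and 899 in WT alone, which gave 33.8% (31.3 to 36.4). The 99 cytochrome P450 genes had 317 and 559, a share of 36.2% (33.1 to 39.4). The 15 Clec, Cd69 and Olr1 genes between the Klr genes of the complex had 38 and 54, a share of 41.3% (31.8 to 51.5). Each of these intervals overlaps that of the Klr genes. The interval of the 15 Clec, Cd69 and Olr1 genes also holds the share of all coding genes, 48.0%.

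The peaks of the Klr genes ranked low within their lists. The median percentile by score was 32.0 in Irx5KO and 37.0 in WT, where the median of a whole list is about 50. The genotype-only peaks had a median of 10.8 for the 73 Irx5KO-only and 20.3 for the 145 WT-only peaks, where all genotype-only peaks had 15.5 in Irx5KO and 18.0 in WT. Their median widths were 260 bp in Irx5KO and 270 bp in WT, against 250 bp for all genotype-only peaks of either list. Among the better-ranked 50% were 2 of the Irx5KO-only and 6 of the WT-only peaks, and of all genotype-only peaks 8366 of 105910 in Irx5KO and 11408 of 132587 in WT.

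The share of Klr peaks found in 1 list only was below that of all peaks in each WT decile by score and in each Irx5KO decile except the eighth, where 1 of 42 Klr peaks (2.38%) was in Irx5KO only, against 1.98% of all Irx5KO peaks. In the first decile the share was 49.3% of the Klr peaks in Irx5KO, against 77.3% of all Irx5KO peaks, and 57.4% in WT, against 81.8% of all WT peaks. In the second decile by score 14.8% of the Irx5KO peaks at Klr genes were in that list only, against 51.7% of all Irx5KO peaks, and 45.4% of the WT peaks, against 62.9% of all WT peaks. With the rates of all peaks in each decile, 190.5 Irx5KO-only and 221.1 WT-only peaks would be counted, where 73 and 145 were. The lists covered 38.5% (Irx5KO) and 42.0% (WT) of the regions assigned to the Klr genes, against 16.4% and 16.6% of those of all coding genes, and the part of this coverage in the overlap was not tested.

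**Figure D5:**
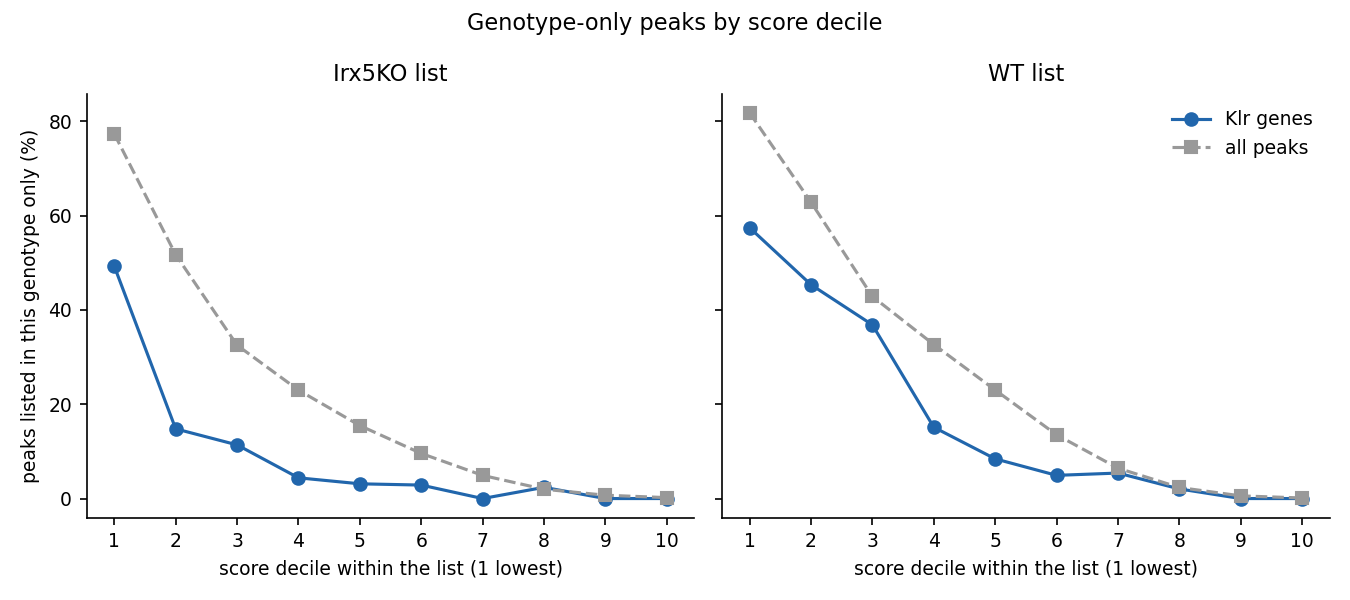
Share of peaks found in 1 list only, in percent, by score decile within the Irx5KO list (left) and the WT list (right), for peaks at Klr genes (circles) and all peaks (squares). In the second decile the Klr share is 14.8% against 51.7% in Irx5KO and 45.4% against 62.9% in WT.

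The highest-ranked peaks of the Klr genes were common to both lists. The first in each list lay inside Klra17, which encodes Ly49Q of plasmacytoid dendritic cells and myeloid cells. It ran from 129861891 to 129863770 in Irx5KO (1880 bp, percentile 99.5) and from 129856761 to 129863840 in WT (7080 bp, percentile 99.5). The WT peak also spanned a further Irx5KO peak at 129856791 to 129859340. A peak of 8760 bp in Irx5KO and 8770 bp in WT, starting at 129803891, lay 22.9 kb from the nearest end of Klra17. Shared WT peaks spanned more than 1 Irx5KO peak in 98 of 537 cases, and shared Irx5KO peaks spanned more than 1 WT peak in 70 of 581 cases, with a maximum of 4 for an Irx5KO peak and 6 for a WT peak, both at Klra4.

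Of the peaks in 1 list only, the highest-ranked in Irx5KO lay near Klrg1 (122261061 to 122261290, 230 bp, percentile 70.7), and another 2 of the first 5 were also assigned to Klrg1. The highest-ranked in WT lay inside Klri2 (129735251 to 129735870, 620 bp, percentile 76.6). The next in WT lay inside Klrc2 (129654551 to 129654800, percentile 65.4), 7660 bp from the nearest Irx5KO peak. Exons and introns were not told apart. Genotype-only peaks lay within gene bodies in 27.4% (18.5 to 38.6) of cases in Irx5KO and 30.3% (23.4 to 38.3) in WT, and shared peaks in 29.8% and 29.2%. A peak of the other list lay within 100 bp of 10 of the 73 Irx5KO-only and 27 of the 145 WT-only peaks.

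Of the genes for ligands of these receptors, all 13 examined had a gene-end peak in Irx5KO and in WT, where 75.2% of all coding genes did. Of their peaks 61 were in Irx5KO alone and 88 in WT alone, which gave 40.9% (33.4 to 49.0) for Irx5KO. That interval holds the share of all coding genes, 48.0%, and also overlaps the interval of the Klr genes. H2-T23, whose product is read by the CD94 and NKG2 receptors, had 1 Irx5KO-only and 1 WT-only peak, and the class I genes H2-K1 and H2-D1 had 3 and 2 and 0 and 2. The NKG2D ligand genes Raet1d, Raet1e and Ulbp1 had 5 and 10, 3 and 10, and 3 and 10. H60c, whose product is known from keratinocytes, had 12 and 9. Cdh1, the gene of the epithelial cadherin bound by Klrg1, had 3 and 2, and Cdh2 had 7 and 18.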

How the data were processed

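Per the labels, each deposited list holds peaks of both replicates of 1 genotype. The submitters' processing notes name the build mm10, Genrich 0.6, cutadapt 2.9, Bowtie2, ChIPseeker 1.24.0, deepTools 3.4.2 and FastQC. Their settings, read shifting and the treatment of multiply mapped reads were not known. The deposited score per peak is a whole number of at least 50, and the signal, p-value and q-value columns hold 0 throughout. Peaks on unplaced contigs (1188 Irx5KO, 1733 WT) were left out. Gene spans and promoter windows came from RefSeq GRCm38.p6, with 1 window per gene. Of the windows given for a gene, the one with its start nearest the gene's 5′ end was used, and that start can lie well inside the gene. Members, lists and motifs were chosen with earlier results of these data known. Every member was named. The rule for giving values in full took the 5 members with the largest excess of genotype-only peaks each way, those with a gene-end peak in 1 genotype, those with no peak, the member of each subfamily with the most peaks, and those holding the 5 highest-scored peaks, and the 5 highest-scored genotype-only peaks, of each list. The promoter windows printed were chosen after their values were seen. The planned protein comparison was replaced by promoter identity, as no protein table was used here. Code was tested on simulated data and against bedtools 2.31.1. Computations used Python 3.11.15, numpy 2.4.6, pandas 2.3.3, scipy 1.17.1, Biopython 1.88 and matplotlib 3.10.9.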

Additional observations from a re-analysis of the deposited data

How the results depend on the processing

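No paired analysis was possible because each genotype has 1 pooled list. For the same reason no replicate could be left out. Results changed most with the score filter, which left fewer peaks to count. For shared and genotype-only peaks, overlap was still judged against the whole other list. Those values therefore give how the peaks of the main count rank. Gene-end peaks, promoter windows and covered bases were counted from the filtered lists alone. In the upper 50% by score 2 peaks were in Irx5KO alone and 6 in WT alone, which gave a share of 25%, with 98.96% of Irx5KO and 97.1% of WT peaks shared; 1 gene had more Irx5KO-only and 5 more WT-only peaks; 7 genes had a gene-end peak in Irx5KO and 11 in WT; 1 promoter window was reached by Irx5KO peaks alone and 1 by WT peaks alone; 4 genes were covered more in Irx5KO. In the upper 25% there were 0 in Irx5KO alone and 1 in WT alone, which gave 0%, with 100% and 98.9% shared, and 0 and 1 gene with more. Requiring an overlap of 50% gave 83.8% and 73.0% shared. Assignment within 10 kb gave 47 Irx5KO-only and 81 WT-only peaks and 5 genes covered more in Irx5KO, and gene bodies gave 20 and 45, with 13 genes that had more WT-only peaks. With peaks up to 2000 bp wide, 10 genes were covered more in Irx5KO and 1 promoter window was reached in Irx5KO only. With equal list lengths 4 genes were covered more in Irx5KO, and in the complex alone 1 was. With 500 bp added, 1 promoter window was reached in WT only. The cause of these changes was not tested. The shares of 25% and 0% rest on 8 peaks and 1 peak. The width filter could not change the share. Overlap was still judged against the whole other list, and the widest genotype-only peak was 870 bp. In the other 5 alternatives it was 30.8% to 36.7%. With a gene-end reach of 3000 bp 27 genes had a peak in each list. The alternatives were computed for the Klr genes only, so no shares of all coding genes stand beside them. The alternatives for covered bases and promoter windows were chosen after seeing the data.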

Other observations

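Between Klra1 and Klra2, where no Klr gene lies, both lists covered a median of over 80% of bases (87.2% in Irx5KO and 92.4% in WT over 15 windows of 50 kb). In 10 of these windows between 130550001 and 131100000, chosen for at least 80% coverage in both lists, the Irx5KO list covered 83.5% to 93.8% and the WT list 84.9% to 97.4%. These 10 windows held 259 Irx5KO peaks, of which 1 was listed in Irx5KO only, and 201 WT peaks, of which 8 were listed in WT only. The choice by coverage in both lists leaves little room for a peak without overlap, so no conclusion is drawn from these counts. In each of the 10 windows coverage was lower in Irx5KO, by 1.44 to 5.24 percentage points.

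The neighbouring lectin genes differed among themselves. Clec2h had 6 Irx5KO-only and 17 WT-only peaks, Clec2i had 4 and 6, and Clec2d, the gene of a ligand of Klrb1 receptors, had 6 and 3. Clec7a, the gene of the beta-glucan receptor dectin, had 1 shared peak in each list, and Clec1a had 3.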
